A study of Mus musculus with 8 samples.

Results

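The genes described here encode secreted or membrane-anchored proteins that organize synapses: the cerebellins Cbln1, Cbln2 and Cbln4, the C1q-like genes C1ql1 and C1ql3, and the neuronal pentraxins Nptx1, Nptx2 and Nptxr. They were chosen by gene symbol in the annotation of the array, not by their values. Of the 8 genes, 7 had a probe set with their symbol, 1 probe set each, out of 22206 probe sets on the array. Nptxr, the membrane-anchored pentraxin, was not analysed here. All 7 probe sets lay above the limit on low values (a mean of 3.94 on the log2 scale over all arrays), as did the mean of each of them in each group.

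The data are from male mice aged 12 weeks that received clothianidin (CLO50) or a vehicle with 1% DMSO (Ctrl) over 2 weeks. Clothianidin, an insecticide of the neonicotinoid class, acts on nicotinic acetylcholine receptors, and its dose of 50 mg/kg/day was described by the submitters as one with no observed adverse effect. Neither strain nor route of dosing is stated in the labels. Total RNA of dissected tissue was hybridised to Affymetrix arrays, 2 for each of 4 groups: hippocampus of exposed mice, hippocampus of control mice, cerebral cortex of exposed mice and cerebral cortex of control mice. Arrays are named by the number in their label, 3 and 6 for exposed and 1 and 6 for control arrays. Whether the arrays of a group stem from different animals is not stated, and p-values therefore measure only how far these arrays vary, which may be technical variation.

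Cerebellins and C1q-like proteins are secreted by presynaptic neurons and share a globular domain with complement C1q. The cerebellins Cbln1 and Cbln2 bridge presynaptic neurexins and postsynaptic delta glutamate receptors. C1q-like proteins bind the adhesion receptor Adgrb3 and, at hippocampal mossy fibre synapses, kainate receptors. Neuronal pentraxins gather AMPA receptors at excitatory synapses, and Nptx2, also known as Narp, was first described as an immediate early gene that neurons transcribe after firing. Cbln1 is best known from cerebellar granule cells, C1ql1 from climbing fibres and C1ql3 from forebrain excitatory neurons.

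Promoter windows, 250 bases before to 50 bases after the annotated transcript start, were taken from RefSeq (build GRCm38.p6) for the 2 of the 7 genes that matched there and could be shown, Cbln4 and C1ql3, whose transcripts differed between the tissues in opposite directions. Both genes lie on the minus strand of chromosome 2, Cbln4 with its window at chr2:172043417-172043716 and C1ql3 with its window at chr2:13010815-13011114. Capitals mark matches, on either strand, to the GC box (GGGCGG), the CCAAT box (CCAAT) and the cyclic AMP response element half-site (TGACG).
Cbln4: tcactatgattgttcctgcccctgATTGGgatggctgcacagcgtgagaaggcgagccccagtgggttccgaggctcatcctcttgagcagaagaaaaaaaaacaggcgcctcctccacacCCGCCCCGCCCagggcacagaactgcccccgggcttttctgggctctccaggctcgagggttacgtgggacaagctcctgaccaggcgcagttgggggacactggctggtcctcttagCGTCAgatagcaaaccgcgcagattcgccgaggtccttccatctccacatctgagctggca
C1ql3: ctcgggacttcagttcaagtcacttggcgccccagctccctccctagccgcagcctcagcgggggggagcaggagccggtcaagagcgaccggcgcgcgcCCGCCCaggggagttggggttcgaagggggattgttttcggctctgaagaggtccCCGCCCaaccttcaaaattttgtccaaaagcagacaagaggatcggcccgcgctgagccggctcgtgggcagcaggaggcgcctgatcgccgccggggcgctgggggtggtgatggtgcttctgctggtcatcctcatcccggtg
Both windows held 2 GC box matches, which overlap each other in Cbln4, and 35.7% of 32851 promoter windows of this length held at least 1. The Cbln4 window also held 1 CCAAT match (found in 37.4% of windows) and 1 TGACG match (20.8%), and C1ql3 held neither. Neither window held the whole cyclic AMP response element TGACGTCA, which contains TGACG (1.79% of windows), or TATAAA (13.6%). E-boxes (CANNTG), left in lower case, numbered 2 in Cbln4 and 1 in C1ql3, and 72.3% of windows held at least 1. These are letter matches and show no binding.

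Array medians lay between 5.21 and 5.40 on the log2 scale, and precision is limited by having 2 arrays per group. Markers bore out the tissue labels: of dentate gyrus granule cell markers 6 of 6 tested (C1ql2 among them), and of CA pyramidal neuron markers 8 of 8 (Grik4 among them), were called higher in hippocampus over both arms, and 7 of 7 probe sets of upper cortical neuron markers were called lower. Hippocampus control 1 and cortex control 6 stood apart in choroid plexus markers: Ttr, the transthyretin gene of that epithelium, measured 19.51 and 15.41 there and 4.17 to 7.76 in the other 6 arrays. Results are therefore also given without these arrays where that changed a call.

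The first question was how these genes differed between hippocampus and cortex. All 7 differed, in opposite directions within the pentraxins and between the cerebellins and C1q-like genes. Cbln1, Cbln2, Cbln4 and Nptx2 were lower in hippocampus and C1ql1, C1ql3 and Nptx1 were higher, over both arms and in each arm by itself (limma, adjusted p under 0.05 over 14804 probe sets). The background was wide: 31.3% of probe sets were called between the tissues over both arms, 19.5% higher and 11.9% lower in hippocampus. Within an arm 14.5% were called in exposed mice (9.25% higher, 5.22% lower) and 17.7% in control mice (10.1% higher, 7.63% lower). For each of the 7 genes the 4 hippocampal and the 4 cortical arrays did not overlap, which held for 19% of all probe sets on the higher side and 11.5% on the lower side. In these bulk samples, fewer cells of a type and less RNA per cell cannot be told apart.

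**Figure D1:**
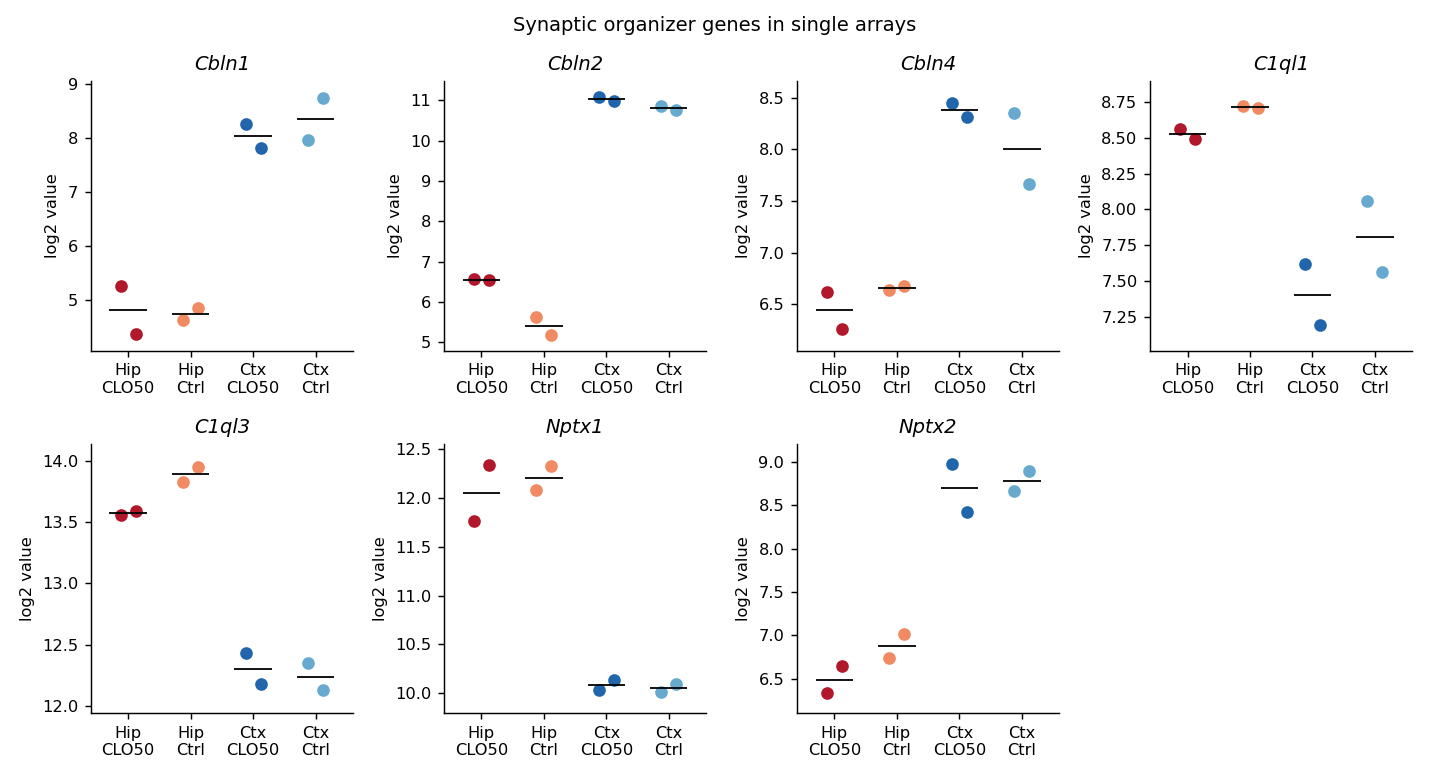
Log2 values of the 7 genes (1 panel each, vertical axes differ and do not start at 0) in each array, with groups from left to right hippocampus CLO50, hippocampus Ctrl, cortex CLO50 and cortex Ctrl; points are arrays and lines are group means (n = 2). In every panel the 4 hippocampal arrays lie wholly on one side of the 4 cortical arrays.

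Cbln2, a partner of neurexins and delta receptors, showed the widest gap. It measured 6.56 and 6.55 in exposed hippocampus and 5.63 and 5.19 in control hippocampus, against 11.08 and 10.98 in exposed cortex and 10.86 and 10.76 in control cortex. Every hippocampal array was more than 4 log2 units below every cortical one. Over both arms Cbln2 was 30.6-fold lower in hippocampus, a log2 difference of -4.94 ± 0.18 (SE) with a 95% interval from -5.34 to -4.54 (limma adjusted p = 8.68e-09). This was the 2nd most negative difference of the 14804 tested.

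Cbln1, the cerebellin of the cerebellar parallel fibre synapse, measured 5.26 and 4.38 in exposed hippocampus and 4.64 and 4.86 in control hippocampus. In cortex it measured 8.27 and 7.82 in exposed and 7.96 and 8.74 in control arrays. The tissues did not overlap, although the 2 exposed hippocampal arrays were 0.88 apart. Cbln1 was 10.6-fold lower in hippocampus over both arms (log2 difference -3.41, SE 0.26, limma adjusted p = 1.86e-06). Cerebellar tissue is one place where Cbln1 is abundant. Of 5 granule cell markers only Zic1 (7.88 to 9.2 over all arrays) and Zic2 (5.12 to 5.95) passed the limit on low values. Cbln3, a cerebellin of those cells, lay at 2.68 to 3.42 in all arrays, under that limit. The part of cerebellar tissue in the Cbln1 values was not tested.

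Cbln4, which binds neurexins and the netrin receptor DCC, measured 6.62 and 6.26 in exposed hippocampus and 6.64 and 6.68 in control hippocampus. Its values were 8.45 and 8.31 in exposed cortex and 8.35 and 7.66 in control cortex. All hippocampal arrays lay below all cortical ones, with cortex control 6 nearest to them. The gap was 3.12-fold over both arms (log2 difference -1.64, SE 0.21, limma adjusted p = 0.000115), the smallest of the cerebellins. In control mice alone it was -1.34 (SE 0.30, limma adjusted p = 0.00875), and without cortex control 1 it was -1.0 with adjusted p = 0.11.

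The C1q-like genes ran the other way. C1ql3 measured 13.56 and 13.59 in exposed hippocampus and 13.83 and 13.95 in control hippocampus, against 12.43 and 12.18 in exposed cortex and 12.35 and 12.13 in control cortex. Every hippocampal array was above every cortical one. The gene was 2.75-fold higher in hippocampus over both arms, a log2 difference of 1.46 ± 0.15 (SE) with a 95% interval from 1.13 to 1.79 (limma adjusted p = 2.03e-05).

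C1ql1, known in mouse from climbing fibre synapses on Purkinje cells, measured 8.56 and 8.49 in exposed hippocampus and 8.72 and 8.71 in control hippocampus. Its cortical values were 7.62 and 7.19 in exposed and 8.06 and 7.56 in control arrays. The hippocampal arrays were close to each other and above all the cortical arrays, which were spread more widely. C1ql1 was 2.02-fold higher in hippocampus over both arms (log2 difference 1.01, SE 0.20, limma adjusted p = 0.0023), the smallest tissue gap of the 7 genes. Within an arm the call was less firm, at 1.12 in exposed mice (SE 0.28, limma adjusted p = 0.0188) and 0.90 in control mice (SE 0.28, adjusted p = 0.0426). In control mice it was lost with no filter (adjusted p = 0.0544), with quantile normalization (0.0671) and without the 2 arrays high in Ttr (0.65, adjusted p = 0.37). It was also lost without either cortex control array, either hippocampus control array or either hippocampus exposed array (difference 0.66 to 1.16, adjusted p 0.0549 to 0.282), and in exposed mice without cortex exposed 6, hippocampus exposed 3 or hippocampus exposed 6 (0.91 to 1.16, adjusted p 0.0743 to 0.135).

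The pentraxins split by tissue. Nptx1, a secreted pentraxin, measured 11.76 and 12.34 in exposed hippocampus and 12.08 and 12.33 in control hippocampus, against 10.03 and 10.14 in exposed cortex and 10.01 and 10.09 in control cortex. The 4 cortical arrays were close together (10.07 ± 0.059, SD) and below all hippocampal arrays. Nptx1 was 4.17-fold higher in hippocampus over both arms (log2 difference 2.06, SE 0.18, limma adjusted p = 5.57e-06).

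Nptx2, the activity-regulated pentraxin, measured 6.33 and 6.64 in exposed hippocampus and 6.74 and 7.02 in control hippocampus. In cortex it measured 8.98 and 8.42 in exposed and 8.67 and 8.90 in control arrays. Here all hippocampal arrays lay below the cortical ones. Nptx2 was lower in hippocampus by a log2 difference of -2.06 ± 0.20 (SE), with a 95% interval from -2.51 to -1.61 (limma adjusted p = 1.53e-05). The other activity-regulated genes listed were mostly lower in hippocampus too. Over both arms the median of the list was -1.40, against 0.11 over all probe sets tested. Of its 20 genes 13 were called lower and 2 higher, against 11.9% and 19.5% of all probe sets. Among the 8 with the smallest p were Egr1 (-2.74, SE 0.15), Arc (-3.16, SE 0.27), Egr2 (-3.90, SE 0.40), Dusp1 (-4.01, SE 0.46) and Nr4a1 (-3.00, SE 0.37), with Homer1 (-1.64, SE 0.22), Vgf (-1.16, SE 0.16) and Fos (-3.26, SE 0.45). Cortex control 1 was high in this list, with a mean log2 value of 11.85 against 10.55 to 10.70 in the other cortical arrays, while Nptx2 in that array lay within the range of the other cortical arrays. In exposed mice alone the median was -1.08, and this array has no part in that difference. There 9 of the 20 were called lower and 2 higher, against 5.22% and 9.25% of all probe sets. These calls use a spread estimated from all 8 arrays, cortex control 1 among them.

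In the order of group means, the 2 hippocampal groups came together and the 2 cortical groups came together for each of the 7 genes. From low to high, the order was hippocampus control, hippocampus exposed, cortex control, cortex exposed for Cbln2, and hippocampus control, hippocampus exposed, cortex exposed, cortex control for Cbln1. For Cbln4 it was hippocampus exposed, hippocampus control, cortex control, cortex exposed, and for Nptx2 hippocampus exposed, hippocampus control, cortex exposed, cortex control. C1ql3 and Nptx1 shared the order cortex control, cortex exposed, hippocampus exposed, hippocampus control, and C1ql1 ran cortex exposed, cortex control, hippocampus exposed, hippocampus control. Within an arm, the gap of hippocampus to cortex was -3.22 in exposed and -3.60 in control mice for Cbln1 (SE 0.37 each), and 1.27 in exposed and 1.65 in control mice for C1ql3 (SE 0.21 each). It was 1.97 in exposed and 2.15 in control mice for Nptx1 (SE 0.25 each) and -2.21 in exposed and -1.91 in control mice for Nptx2 (SE 0.29 each), with limma adjusted p from 4.19e-05 to 0.00195 over these 8 values. Neighbours of the same tissue did not pass the test for any gene, and neighbours from different tissues did not overlap.

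**Figure D2:**
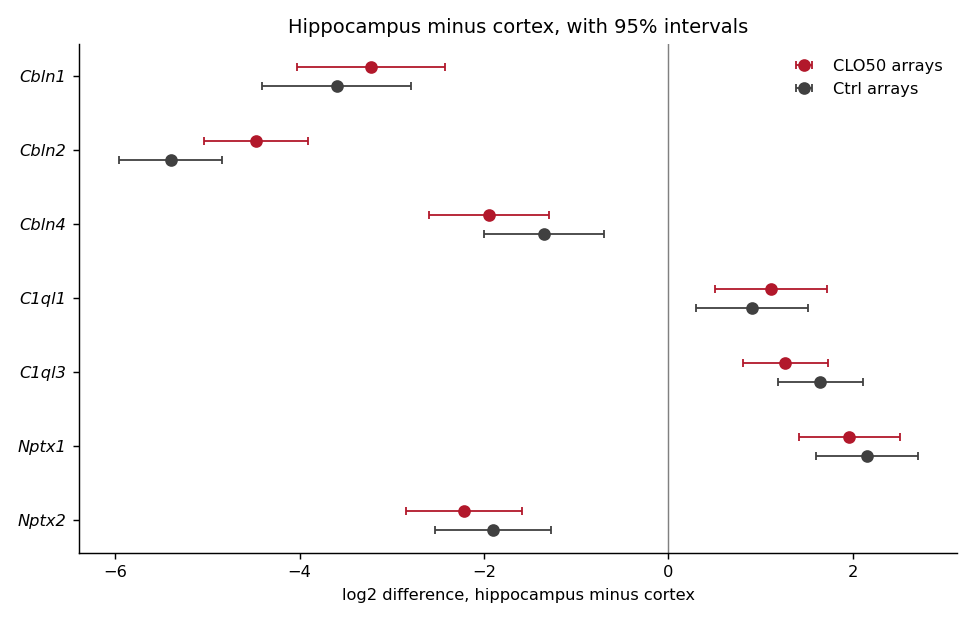
Log2 difference of hippocampus minus cortex for the 7 genes (rows), with 95% intervals from limma, in exposed mice (CLO50, red) and control mice (Ctrl, dark grey), 2 arrays per group. Intervals lie below 0 for Cbln1, Cbln2, Cbln4 and Nptx2 and above 0 for C1ql1, C1ql3 and Nptx1 in both arms.

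The nearest relatives on the array were 3 further genes of these families. C1ql2, the C1q-like gene of dentate granule cells and their mossy fibres, measured 11.79 and 11.68 in exposed and 11.91 and 11.73 in control hippocampus, against 6.74 and 6.78 in exposed and 6.76 and 6.85 in control cortex. It was higher in hippocampus by 4.995 on the log2 scale (SE 0.17, limma adjusted p = 6.32e-09), as were C1ql1 and C1ql3 by less. C1ql4 and Cbln3 lay below the limit on low values and were not tested.

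Receptors and partners of the organizers also differed between the tissues. Of 16 such genes listed, 14 were on the array by symbol and tested. Over both arms 7 were called higher and 3 lower in hippocampus, against 19.5% and 11.9% of all probe sets. The median difference of the list was 0.35. Gria1, the AMPA receptor subunit GluA1, was higher by 3.32 (SE 0.16) and Gria4, the subunit GluA4, was lower by a difference of -1.16 (SE 0.18). The kainate receptor subunit genes Grik4 (2.19, SE 0.22) and Grik2 (1.23, SE 0.20) were higher. Dcc, the netrin receptor gene to whose product Cbln4 binds, was higher by 2.75 (SE 0.19), while Cbln4 was lower. Of the adhesion receptor genes, Adgrb1 was lower (-1.43, SE 0.18) and Adgrb2 higher (0.66, SE 0.18). Adgrb3, the receptor of C1q-like proteins, was also called higher, near the threshold (0.42, SE 0.15, limma adjusted p = 0.0485). Its call was not followed under the alternatives. Nrxn3, a neurexin, was lower (-0.72, SE 0.15). The limma adjusted p of the other called genes named here ran from 5.49e-08 for Gria1 to 0.0179 for Adgrb2. The Adgrb2 call was lost without the 2 arrays high in Ttr and without cortex control 6, cortex exposed 3 or hippocampus exposed 6 (limma adjusted p 0.0659 to 0.0787), and its difference without 1 array ran from 0.48 to 0.83.

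**Figure D3:**
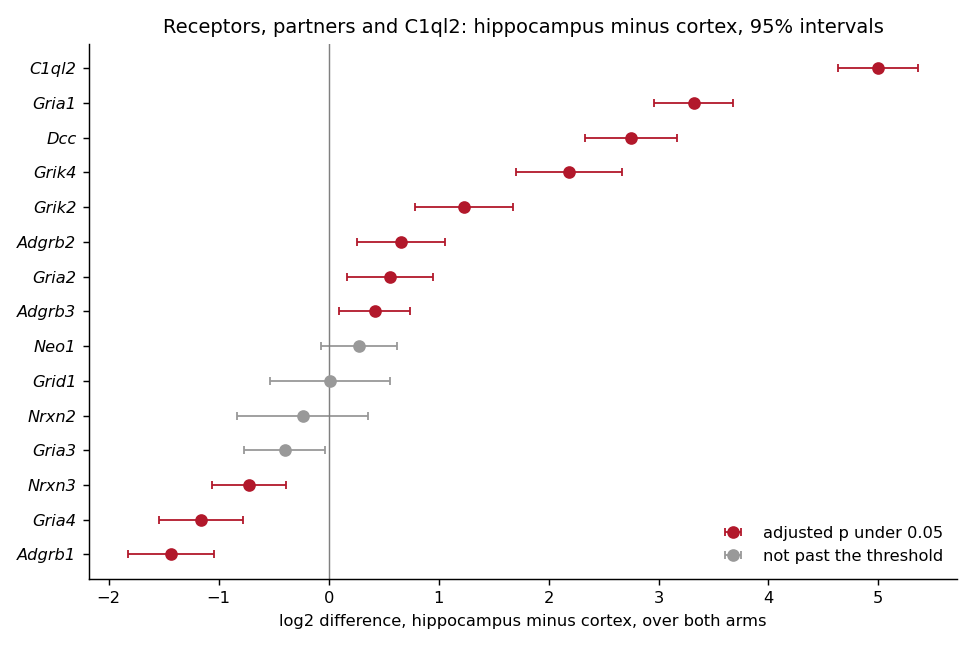
Log2 difference of hippocampus minus cortex over both arms (4 arrays per tissue) for C1ql2 and the 14 tested receptors and partners, with 95% intervals; red marks adjusted p under 0.05 and grey the rest. Of the partners, 7 are red to the right of 0 and 3 are red to the left.

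Among 40 other synaptic organizers listed, such as neuroligins, leucine-rich repeat proteins and teneurins, 39 were tested. Over both arms 12 were called higher and 13 lower in hippocampus (median -0.23), against 19.5% and 11.9% of all probe sets. The 8 with the smallest p were Lrrtm3 (-2.61, SE 0.17), Clstn1 (-1.63, SE 0.16), Lrrc4c (-0.995, SE 0.15) and Flrt2 (-1.07, SE 0.16) on the lower side, and Lrrtm1 (2.36, SE 0.21), Gpc4 (2.52, SE 0.24), Lgi1 (1.23, SE 0.14) and Nlgn3 (1.0, SE 0.15) on the higher side. Members of 1 family thus lay on opposite sides here as well, as the leucine-rich repeat genes Lrrtm1 and Lrrtm3 did.

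The next question was whether exposure to clothianidin changed the 7 genes. None passed the test in hippocampus, in cortex or averaged over both tissues (limma adjusted p from 0.639 to 0.997). At an unadjusted p under 0.05, Cbln2 in hippocampus and Cbln2 averaged over the tissues were the only 2 of these values. The background was low as well, since 0.00675% of 14804 probe sets (1 probe set) were called in each of these comparisons. The probe set called for the average was a choroid plexus marker, and 2 control arrays stood apart in such markers. An unadjusted p under 0.05 was found for 5.81% of probe sets in hippocampus, 6.18% in cortex and 5.97% for the average. With 2 arrays per group the SE of a gene within 1 tissue was 0.21 (C1ql3) to 0.37 (Cbln1) on the log2 scale.

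**Figure D4:**
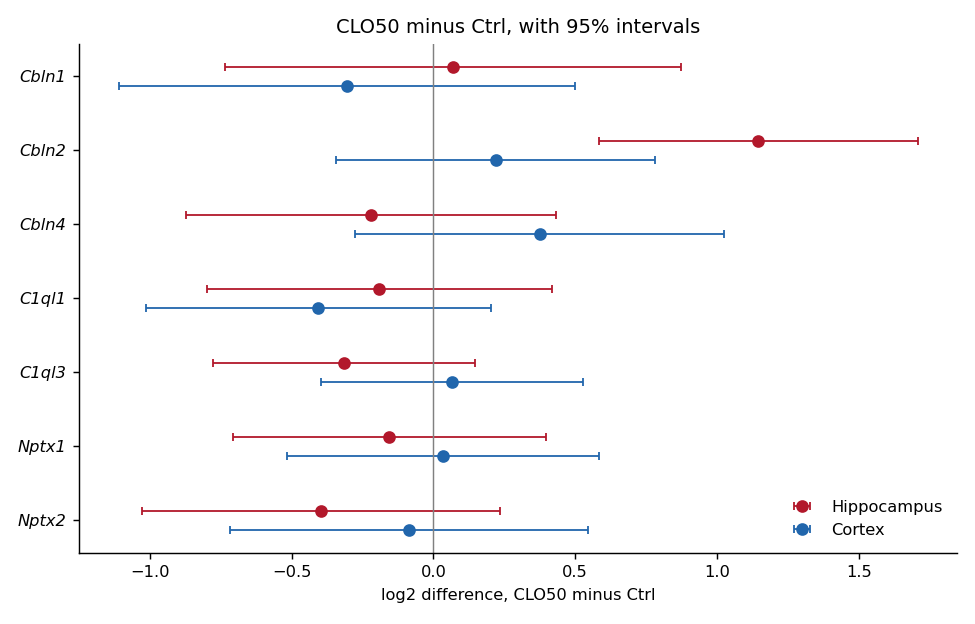
Log2 difference of CLO50 minus Ctrl for the 7 genes (rows), with 95% intervals from limma, in hippocampus (red) and cortex (blue), 2 arrays per group. The interval of Cbln2 in hippocampus lies above 0, and the other 13 intervals include 0.

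Cbln2 had the largest exposure difference of the 7 genes. In hippocampus both exposed arrays (6.56 and 6.55) lay above both controls (5.63 and 5.19), and the means were 6.555 ± 0.0071 in exposed and 5.41 ± 0.31 in control arrays (SD, n = 2 each). The difference was 1.15 on the log2 scale, or 2.21-fold (SE 0.26, 95% interval 0.58 to 1.71), and did not pass the test over all probe sets (limma adjusted p = 0.639). Of all probe sets, 0.723% differed by at least as much in either direction. In cortex both exposed arrays were also above both controls, by 0.22 (SE 0.26, limma adjusted p = 0.927), within the interval from -0.34 to 0.78. The difference between the effects in the 2 tissues was 0.92 (SE 0.36, 95% interval 0.13 to 1.72, limma adjusted p = 0.998), so the gap of hippocampus to cortex was -4.47 in exposed mice and -5.40 in control mice. Averaged over tissues, Cbln2 differed by 0.68 (SE 0.22, limma adjusted p = 0.811), with the SE taken from means of the arrays of the same number. Without hippocampus control 1 the hippocampal difference was 1.37 and without control 6 it was 0.92; over all alternatives tried the adjusted p was 0.395 to 0.997.

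Most genes of 2 cortical marker lists had higher values in the exposed hippocampal arrays, and 1 of them passed the test. Of deep cortical and subicular markers 8 of 10 were higher in exposed than in control hippocampus (median 0.96). Of these 1 was called, Tshz2 (2.53, SE 0.31, limma adjusted p = 0.0449). This list was mixed by tissue. Over both arms 6 of 10 were called lower in hippocampus than in cortex and 3 higher, against 11.9% and 19.5% of all probe sets. Bcl11b and Nts, both among the 8, were higher in all hippocampal arrays than in all cortical ones. The Tshz2 call was lost under 10 of 14 alternatives, with quantile normalization, no trend or array weights, without the 2 arrays high in Ttr (2.58, limma adjusted p = 0.263), and without hippocampus exposed 3, hippocampus control 1 or any 1 cortical array (adjusted p 0.07 to 0.61 over the 10). The mean log2 value of these markers was 9.45 and 8.94 in exposed arrays, against 8.09 and 8.29 in controls. Several genes of this list were chosen with their values in these arrays already known, so it is not independent evidence. Upper cortical markers averaged 9.88 and 9.48 in exposed and 9.35 and 9.16 in control hippocampus, with 6 of 7 probe sets higher (median 0.54), 0 called and 3 at an unadjusted p under 0.05. Their median was 0.74 without hippocampus control 1 and 0.30 without hippocampus control 6. The median over all probe sets tested was 0.005. Exposed array 3 was the higher of the exposed arrays in the mean of both lists, and the 2 exposed arrays differed by 0.01 in Cbln2. Single genes of the deep list varied: Ccn2 measured 7.63 in exposed 3 and 4.85 in exposed 6, and Rxfp1 measured 7.99 in both. The part of these marker levels in the Cbln2 difference was not tested.

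**Figure D5:**
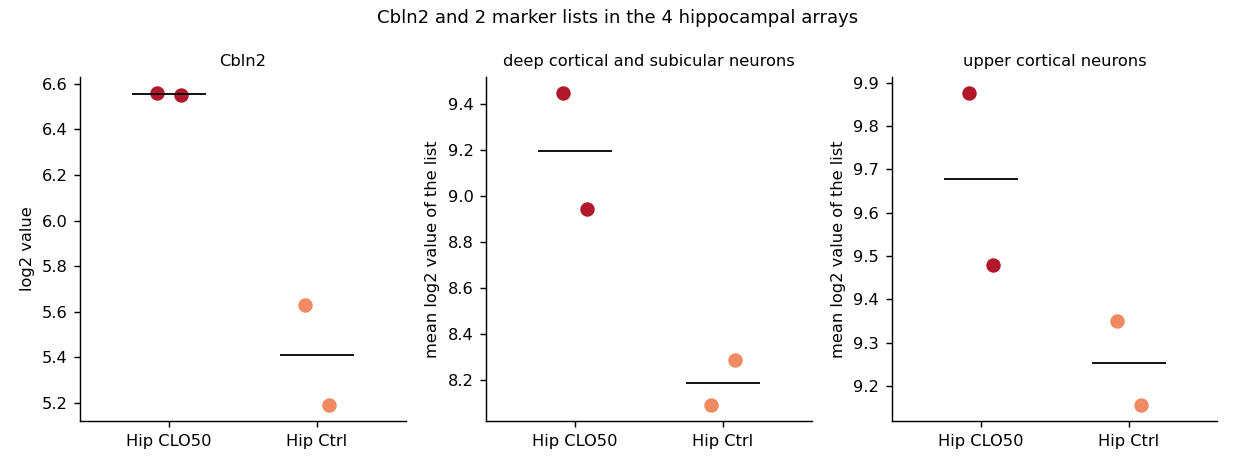
Log2 value of Cbln2 (left) and mean log2 value of deep cortical and subicular markers (10 probe sets, middle) and upper cortical markers (7 probe sets, right) in the exposed (Hip CLO50) and control (Hip Ctrl) hippocampal arrays; vertical axes do not start at 0, points are arrays and lines are means. In each panel both exposed arrays lie above both control arrays.

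The other cerebellins showed no common direction with exposure. Cbln1 differed by 0.07 in hippocampus (SE 0.37, 95% interval -0.73 to 0.87) and by -0.31 in cortex (SE 0.37, interval -1.11 to 0.50), and the exposed and control arrays overlapped in both tissues. Cbln4 differed by -0.22 in hippocampus (SE 0.30), where the exposed arrays lay just below the controls, and by 0.38 in cortex (SE 0.30), where they overlapped at cortex control 1. Without cortex control 1 that cortical difference was 0.72, and without cortex control 6 it was 0.03.

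C1ql3, C1ql1 and Nptx2 had lower values in both exposed hippocampal arrays than in both controls. C1ql3 differed by -0.32 (SE 0.21, 95% interval -0.78 to 0.15), C1ql1 by -0.19 (SE 0.28, interval -0.80 to 0.42) and Nptx2 by -0.40 (SE 0.29, interval -1.03 to 0.24). With Cbln4, 4 of the 7 genes thus had exposed hippocampal arrays wholly below the controls and 1, Cbln2, wholly above, where 14% of all probe sets lay below and 16.7% above in this way. In cortex 1 of the 7, Cbln2, lay wholly above and 0 lay wholly below, against 17.1% and 21.4% of all probe sets. The adjusted p of these differences was 0.925 to 0.975 for the lower ones, and none passed the test.

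In cortex, C1ql1 differed by -0.41 (SE 0.28, 95% interval -1.01 to 0.20), with cortex exposed 3 between the 2 control values. Markers of oligodendrocyte precursors, which also express C1ql1, averaged 7.24 and 7.06 in exposed cortex and 7.52 and 7.42 in control cortex. Of these markers 4 of 5 were lower, with 0 called and 1 at an unadjusted p under 0.05. Microglial markers were lower there in 8 of 8 (median -0.31) and oligodendrocyte markers in 6 of 7 (median -0.155), while 5 of 7 astrocyte markers were higher. In each of these lists 0 were called and 0 had an unadjusted p under 0.05. Of all probe sets tested, 7838 of 14804 were lower (median -0.0250). The part of precursor markers in the C1ql1 value was not tested. The remaining cortical differences were 0.07 for C1ql3 (SE 0.21), 0.03 for Nptx1 (SE 0.25) and -0.08 for Nptx2 (SE 0.29). Nptx1 differed by -0.15 in hippocampus (SE 0.25), where the groups overlapped. No difference of the exposure effect between the tissues passed the test for the 7 genes (limma adjusted p = 0.998 for each, where 0% of probe sets were called and 3.45% had an unadjusted p under 0.05; unadjusted p = 0.0262 for Cbln2 and 0.184 to 0.604 for the others).

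The cortical Nptx2 values stood beside other activity-regulated genes, of which 16 of 20 were lower in exposed cortex (median -0.67, against -0.0250 over all probe sets) and 1 was called. This was Nr4a2, which is also in the list of deep cortical and subicular markers. Of that list 8 of 10 were lower in exposed cortex (median -0.18) and Nr4a2 was the 1 called. Nr4a2 fell by 2.00 (SE 0.24, limma adjusted p = 0.0369). That call was lost without any 1 cortical array or either exposed hippocampal array (limma adjusted p 0.0712 to 0.536), with quantile normalization (0.0726), with no trend (0.231) and with the 2 Ttr-high arrays left out (0.0747). The count and median of the activity-regulated list rested on cortex control 1: without it 10 of 20 were lower and 10 higher, with a median of 0.07. Without cortex control 6 the median was -1.58 with 16 lower. Both alternatives were chosen after seeing the data. In hippocampus 12 of the 20 were higher and 8 lower with 0 called and 1 at an unadjusted p under 0.05, Inhba (-0.99, SE 0.27, limma adjusted p = 0.769).

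Receptors and partners had no call with exposure in either tissue (limma), and 0 of 14 had an unadjusted p under 0.05 in either. In hippocampus 10 of 14 were higher (median 0.13), with Adgrb3, the receptor of C1q-like proteins, at 0.32 (SE 0.21), Dcc at 0.33 (SE 0.27), Gria4 at 0.28 (SE 0.25) and Nrxn3 at 0.21 (SE 0.22). Without hippocampus control 1, 7 of 14 were higher (median 0.01). In cortex 8 of 14 were higher (median 0.14, and 0.07 or 0.01 without cortex control 1 or 6), with Adgrb2 at 0.41 (SE 0.26), Adgrb3 at 0.27 (SE 0.21), Gria3 at -0.30 (SE 0.24) and Grik4 at -0.33 (SE 0.31). Of the 39 other synaptic organizers, 29 were higher and 9 lower in exposed hippocampus (median 0.13, against 0.005 over all probe sets). Without hippocampus control 1, 26 were higher and 13 lower (median 0.195), and without hippocampus control 6 the median was 0.115. Of this list 0 were called and 5 had an unadjusted p under 0.05, led by Adgrl2 (1.07, SE 0.33), Tenm3 (0.78, SE 0.27), Lrrtm3 (0.66, SE 0.25) and Slitrk1 (0.68, SE 0.25). In cortex 22 were higher and 17 lower (median 0.07, and 0.15 or 0.01 without cortex control 1 or 6), also with 0 called and 6 at an unadjusted p under 0.05, and Tenm2 (1.04, SE 0.25), Ptprf (1.09, SE 0.30), Slitrk4 (0.66, SE 0.21) and Flrt2 (-0.67, SE 0.23) had the smallest p. The limma adjusted p of the genes named here was 0.74 to 0.962.

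The genes whose values ran most like each of the 7 over the 8 arrays were found among 13240 named probe sets by Pearson's r, as a description. The arrays fall into 2 tissues, so r mostly reflects the gap between them, and all points share the same arrays. Cbln2 was most like Rnd1, Rims3 and Camk2n1 (r of 0.997 for each). Rnd1 measured 7.32 and 6.95 in exposed hippocampus, against 6.15 and 5.97 in control hippocampus. Rims3 measured 5.90 and 5.94 in exposed hippocampus, against 4.82 and 5.0 in control hippocampus. For both genes, as for Cbln2, the exposed arrays lay above the controls. Both were picked for their likeness to Cbln2 over these same arrays, so this is not independent evidence. Cbln1 was most like Glrb, Midn and Rnf39 (r from 0.989 to 0.997), and Cbln4 most like Mtus2, Olfr464 and Rab13 (0.981 to 0.992). C1ql3 was most like Amigo2, Foxo6 and Zhx3 (0.993 to 0.995), and C1ql1 most like Lrrc75b, Hpca and Nt5dc2 (0.990 to 0.991). Nptx1 was most like Neurod6, Slit1 and Sipa1l3 (0.996 to 0.997), and Nptx2 most like Stard8, Zbtb22 and Cntn3 (0.990 to 0.994).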

How the data were processed

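Per the labels' protocols, total RNA with an integrity number above 7.0 was turned into labelled targets with GeneChip WT reagents for 1-colour arrays. The authors deposited log2 values per probe set, made with RMA per the submitters' processing notes; the labels give neither its version nor a genome build. No base of the logarithm is stated, and log2 was assumed from RMA's usual output. Values ran from 1.59 to 19.93, which does not settle the base or the scale. The fold values rest on this assumption. No detection value was used here, and probe sets were named from the platform annotation (19572 of 22206 had 1 gene symbol and 2634 none).

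The 33.3% of probe sets with the lowest mean were left out, and 14804 were tested. All 8 arrays entered 1 limma model (version 3.58.1, R 4.3.3) of the 4 group means (eBayes with a mean-variance trend, two-sided, Benjamini-Hochberg over all probe sets in each comparison, threshold 0.05). Exposure averaged over tissues was fitted to the means of the 2 arrays with the same arm and number, 2 means per arm, without the number being known to mark 1 animal. The 2 arrays within a group had a Pearson r of 0.987 to 0.991, and no 2 were identical. The script was tested on simulated data. The genes, lists and alternatives were chosen with earlier results of these data known. Of each list, up to 8 called genes with the smallest p are named, or 4 where 0 passed, and Adgrb3 is named between tissues besides. Likeness names the 3 highest r per gene. Alternatives were other filters, quantile normalization, no trend, array weights, a replicate block and leaving out arrays.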

Additional observations from a re-analysis of the deposited data

How the results depend on the processing

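Over both arms, the tissue differences of all 7 genes kept their direction and stayed past the threshold under each of the 15 alternatives. Of 686 values of the 7 genes under alternatives, 648 kept direction and side of the threshold, 13 lost the call (all C1ql1 or Cbln4 within 1 arm, given above) and 25 changed sign. The sign changes were all of exposure differences that had not passed. Without the 2 control arrays high in Ttr, the exposure difference in cortex was -0.045 for C1ql3, 0.03 for Nptx2 and 0.085 for Cbln1. There Cbln1 was at -0.04 in hippocampus and at -0.125 for its difference from the cortical effect, and C1ql2 was at 0.005 in hippocampus. Leaving out 1 array, the difference in cortex ran from -0.06 to 0.19 for C1ql3, -0.36 to 0.20 for Nptx2, -0.695 to 0.085 for Cbln1, -0.725 to 0.065 for Grik4 and -0.02 to 0.09 for Nptx1. In hippocampus it ran from -0.37 to 0.51 for Cbln1, -0.645 to 0.005 for Nr4a3, -0.175 to 0.005 for C1ql2 and -0.44 to 0.14 for Nptx1. For the difference between tissues it ran from -0.065 to 0.81 for Cbln1, -0.035 to 0.46 for C1ql1 and -0.48 to 0.10 for Nptx1. Averaged over tissues, leaving out 1 number of an arm, it ran from -0.085 to 0.24 for Cbln4, -0.45 to 0.22 for Cbln1 and -0.23 to 0.11 for Nptx1. Of 711 values of the other named genes, 23 lost the call (Nr4a2, Tshz2 and Adgrb2, given above) and 4 changed sign. The cause of these changes was not tested.

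Over all probe sets, exposure calls numbered 1 in cortex, 1 in hippocampus, 0 for the difference between tissues and 1, a choroid plexus marker, for the average. With quantile normalization or no trend they numbered 0 in cortex and 0 in hippocampus, with array weights 2 and 0, and without the arrays high in Ttr 3 and 0. Leaving out 1 array gave 0 to 2 in cortex, 0 to 56 in hippocampus (56 without hippocampus control 6), 0 to 30 for the difference (30 without hippocampus control 6) and, per number, 1 to 26 for the average (26 without control 6). On 8 single arrays the average gave 0, with and without a random replicate block. Between tissues, leaving out 1 array gave 1289 to 2532 calls in control mice (2620 with all arrays) and 1074 to 2440 in exposed mice (2143), and without the arrays high in Ttr control mice gave 1155. For the pairing, arrays of the same arm and number deviated together at r = 0.28 in exposed and -0.00088 in control mice. With 2 arrays per group, these values do not settle whether the number marks the same animal. The average over tissues used it to form its means all the same; on 8 single arrays Cbln2 averaged the same 0.68 (SE 0.18, limma adjusted p = 0.407), and 0.68 with the random block (SE 0.20, adjusted p = 0.69). With the number as a fixed replicate block the difference between tissues gave 1 call in place of 0, and all tissue calls of the 7 genes stayed. Exposure within a tissue was not analysed as paired, because mice received either clothianidin or vehicle and the labels name no pairs of mice. Signal over background is unknown, which limits low values such as Cbln1 in hippocampus.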
